A study of Mus musculus with 9 samples.

Results

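The comparison described here is that of HGPP livers, from mice given the high dose of a polysaccharide extract of the herb Gynostemma pentaphyllum while on a diet without methionine and choline, with MCD livers, from mice on the same diet given the vehicle alone. It takes in 6 of the 9 libraries of the study, chosen by their group labels, with 3 livers in each group. The HGPP mice were gavaged with the polysaccharides at 300 mg/kg, and the MCD mice with 0.5% sodium carboxymethylcellulose, the solution in which the extract was dissolved. The other 3 libraries are from MCS mice, whose diet contained both nutrients and which received the same vehicle, and their values are given as a point of orientation. All mice were wild-type C57BL/6 males, bought at 9 weeks of age, adapted for 1 week and fed for 4 weeks, and liver RNA of 1 mouse makes 1 library. Single livers are called HGPP1 to HGPP3, MCD1 to MCD3 and MCS1 to MCS3, and nothing in the labels pairs mice between groups. No library analysed here is from mice given the extract on the sufficient diet, so the comparison concerns its use on the deficient diet alone.

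Methionine and choline supply the methyl groups and the phosphatidylcholine that the liver needs to package fat into lipoproteins. A mouse kept without both stores fat in hepatocytes and then develops inflammation and early fibrosis, which is why the diet is used as a model of steatohepatitis. In such livers, debris of fat-laden hepatocytes and products of gut bacteria are sensed by Toll-like receptors on the cell surface and by NOD-like receptors inside macrophages, where NLRP3 and related sensors assemble inflammasomes that mature interleukin-1 beta through caspase-1. Monocytes drawn in from the blood become macrophages that ring lipid droplets and make cathepsins, metalloproteinases and lipid-binding proteins. Hepatocytes of the same livers adjust cholesterol synthesis, fatty acid use, drug metabolism and the clock. The comparison asks which of these programs stood at a different level in livers that had also received the extract.

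Few single genes passed a test that accounts for the number of genes, while many inflammatory genes lay lower in HGPP livers than in MCD livers. Of 21936 genes, 13817 had at least 0.1 FPKM (fragments scaled to gene length and to library depth) in 3 or more libraries and were tested by limma on log2(FPKM + 0.1). At an adjusted p under 0.05, 3 genes passed, all lower in HGPP, which is 0.0217% of the genes tested. The looser rule that the study applied asks for a change of more than 1 on the log2 scale and for p under 0.05 without adjustment. By it 841 genes differed in the limma fit (6.09% of those tested), 714 of them lower in HGPP (5.17%) and 127 higher (0.919%). The study applied the rule to read counts fitted with DESeq, and its own numbers of genes are not these. At an unadjusted p under 0.05 alone, 1339 genes lay lower (9.69%) and 552 higher (4%), where 690.85 in all would be expected without any difference. The 3 HGPP libraries were all below the 3 MCD libraries for 1565 genes (11.3%) and all above them for 805 (5.83%). Since so few genes passed the adjusted p, the words rose and fell are kept for those 3, and every other gene is given by its values.

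**Figure D1:**
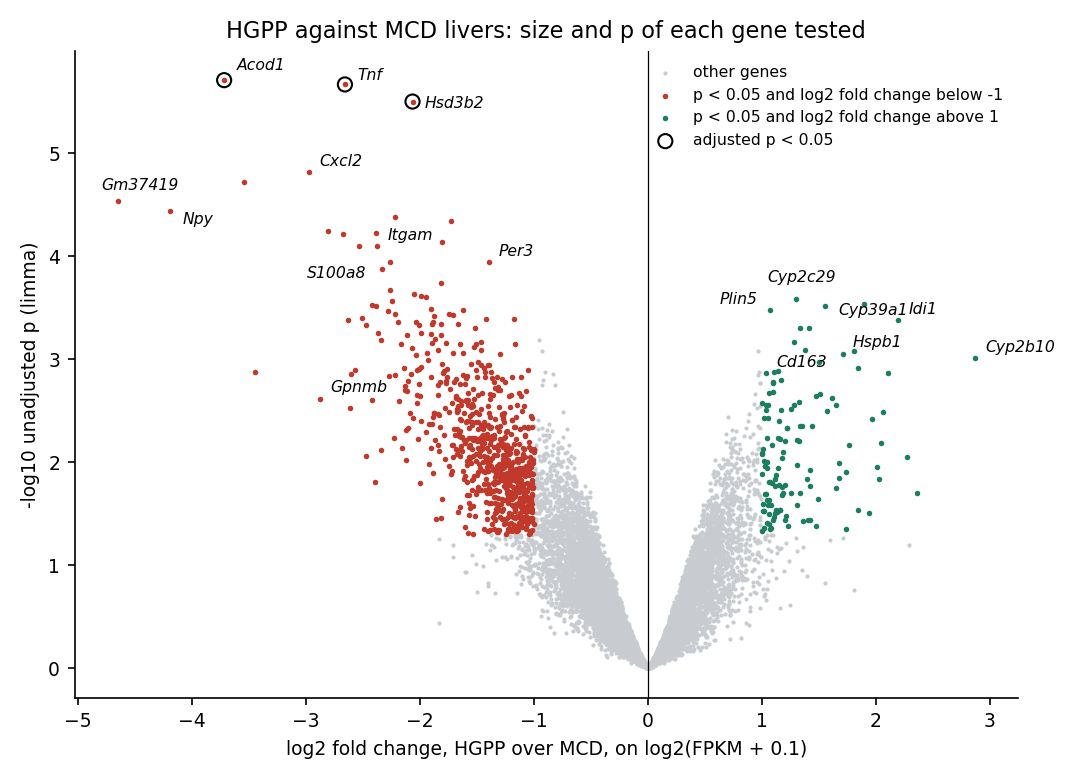
Each point is 1 of 13817 genes, with the log2 fold change of HGPP over MCD on log2(FPKM + 0.1) on the horizontal axis and the negative log10 of the unadjusted limma p on the vertical axis. The 714 red points on the left outnumber the 127 green points on the right, and the 3 ringed genes passed the adjusted p.

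The MCD livers differed more among themselves than the HGPP livers did, and this bears on every value below. The root mean square log2 difference between 2 livers averaged 0.57 within HGPP and 0.74 within MCD, and 0.76 from an HGPP to an MCD liver. Of the 714 genes lower in HGPP, MCD1 was the MCD liver nearest to the HGPP livers for 547, and of the 127 higher genes, MCD2 was the nearest for 86. Transcripts of mitochondrial DNA made up 12.6%, 13.2% and 11.6% of the summed FPKM in HGPP1 to HGPP3, against 19.5%, 13.4% and 31.3% in MCD1 to MCD3 and 8.7%, 14.7% and 11.1% in MCS1 to MCS3. The part of this share, and of RNA quality, in the results was not tested. A fit with the RNA integrity number as a covariate was made. In it no gene passed the adjusted p, and 338 genes met the looser rule of the study. By the study's listing this number was higher in HGPP1 and HGPP3 than in any MCD liver. HGPP2 lay just below MCD2, and MCD3 had the lowest number. With 6 libraries, that fit cannot tell RNA quality apart from the group. Without MCD1, 443 genes passed the adjusted p, and without MCD3 none did. The libraries rest on 13355284 to 15691031 fragments in HGPP and 11492657 to 16702368 in MCD.

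Acod1 fell the furthest of the 3 genes that passed. It encodes the enzyme that makes itaconate from an intermediate of the citric acid cycle in activated macrophages. Its values were 0.143, 0.208 and 0.316 FPKM in HGPP1 to HGPP3, against 2.65, 3.93 and 6.31 FPKM in MCD1 to MCD3 and 0.706, 0.0732 and 0.408 FPKM in MCS1 to MCS3. Every HGPP liver was far below the lowest MCD liver and within the range of the MCS livers. The log2 fold change was -3.72 (standard error 0.37, limma adjusted p = 0.0145). The gene Acod1 (ENSMUSG00000022126) lies on the plus strand of chromosome 14 of GRCm38, from 103046977 to 103056573.

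Tnf, the gene of tumor necrosis factor, fell to nearly the same level in every HGPP liver. It measured 0.503, 0.458 and 0.467 FPKM in HGPP1 to HGPP3, 2.97, 3.29 and 4.51 FPKM in MCD1 to MCD3, and 0.194, 0.0781 and 0.122 FPKM in MCS1 to MCS3. The groups did not overlap, and the HGPP livers stayed above all MCS livers. The log2 fold change was -2.66 (standard error 0.27, limma adjusted p = 0.0145). Tnf (ENSMUSG00000024401) lies on the minus strand of chromosome 17, from 35199381 to 35202007.

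The last of the 3, Hsd3b2, is no inflammatory gene but encodes a 3-beta-hydroxysteroid dehydrogenase, an enzyme of steroid hormone conversion. It measured 2.57, 2.22 and 2.38 FPKM in HGPP1 to HGPP3, 10.6, 8.72 and 11.8 FPKM in MCD1 to MCD3, and 8.48, 8.61 and 5.21 FPKM in MCS1 to MCS3. In contrast to Acod1 and Tnf, the HGPP livers lay below the MCS livers too. The log2 fold change was -2.07 (standard error 0.22, limma adjusted p = 0.0145), and Hsd3b2 (ENSMUSG00000063730) lies on the minus strand of chromosome 3 from 98709255 to 98724543. Members of this family have near-identical copies, and reads may be split between them. Of its paralogs, Hsd3b3 measured 6.71, 4.51 and 6.65 FPKM in HGPP and 5.93, 9.73 and 6.54 FPKM in MCD, and Hsd3b5, a male-biased member, 0.435, 0.353 and 0.329 FPKM in HGPP and 1.12, 0 and 0.394 FPKM in MCD. Both overlapped between the groups, with log2 fold changes of -0.30 (95% interval -0.89 to 0.29) and 0.26 (95% interval -1.42 to 1.94).

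All 3 calls depended on the libraries used. Without MCD1 the adjusted p was 0.00205 for Acod1, 0.00466 for Tnf and 0.00621 for Hsd3b2. Without MCD3 it was 0.152 for each of them. Without any 1 of the HGPP livers it lay between 0.0706 and 0.129 over the 3 genes, and without MCD2 it was 0.0684 for Acod1 and Tnf and 0.0475 for Hsd3b2. The log2 fold changes stayed below 0 in all 19 alternatives and were nearest to 0 with a pseudocount of 1, at -2.06 for Acod1, -1.62 for Tnf and -1.74 for Hsd3b2.

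The promoters of Acod1 and Tnf, and of Cxcl2, Per3 and Hspb1, which are described further on, are shown with a short motif chosen for each. Each is the 250 bases before the RefSeq start of the gene on GRCm38, and the bases in capitals mark the matches of 1 motif, searched on both strands. In Acod1 (chr14:103046762-103047011, plus strand) and Tnf (chr17:35202008-35202257, minus strand) the capitals mark a TATA box, TATAAA, which 13.0% of 27025 promoters hold. In Cxcl2 (chr5:90903649-90903898, plus strand) they mark 2 overlapping matches of the NF-kB consensus, 1 on each strand, which 7.01% hold. In Per3 (chr4:151044666-151044915, minus strand) they mark 2 D-boxes, TTATGTAA, the element of the clock output factors DBP and TEF, which 0.862% hold. In Hspb1 (chr5:135887669-135887918, plus strand) they mark 2 pairs of heat shock half-sites, GAANNTTC, which 6.78% hold. GENCODE places the start of Acod1 35 bases and that of Cxcl2 28 bases further upstream. Each promoter was searched for all of these motifs and for the E-box CACGTG, and held only the motif marked. Acod1 and Tnf thus held no match of the NF-kB consensus, and Per3 held no E-box. A match is a description of the letters and not a measured binding site.
Acod1: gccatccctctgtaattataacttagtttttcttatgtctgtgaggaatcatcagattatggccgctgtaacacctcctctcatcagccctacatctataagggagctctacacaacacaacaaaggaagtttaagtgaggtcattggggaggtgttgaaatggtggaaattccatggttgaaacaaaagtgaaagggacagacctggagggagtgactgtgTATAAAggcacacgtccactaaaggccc
Tnf: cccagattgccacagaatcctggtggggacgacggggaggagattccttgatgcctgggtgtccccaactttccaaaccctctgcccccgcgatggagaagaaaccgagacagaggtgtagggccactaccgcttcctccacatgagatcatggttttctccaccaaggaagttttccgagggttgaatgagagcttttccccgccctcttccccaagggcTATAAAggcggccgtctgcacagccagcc
Cxcl2: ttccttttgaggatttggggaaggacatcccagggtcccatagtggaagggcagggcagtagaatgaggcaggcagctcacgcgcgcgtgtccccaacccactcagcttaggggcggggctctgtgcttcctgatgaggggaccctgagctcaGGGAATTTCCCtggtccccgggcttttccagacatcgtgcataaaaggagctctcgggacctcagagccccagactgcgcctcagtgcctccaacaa
Per3: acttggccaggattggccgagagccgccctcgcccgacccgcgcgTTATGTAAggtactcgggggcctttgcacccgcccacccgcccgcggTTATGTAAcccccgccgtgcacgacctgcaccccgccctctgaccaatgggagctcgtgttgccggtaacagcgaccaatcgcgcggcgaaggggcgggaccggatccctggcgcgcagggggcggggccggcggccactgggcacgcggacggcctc
Hspb1: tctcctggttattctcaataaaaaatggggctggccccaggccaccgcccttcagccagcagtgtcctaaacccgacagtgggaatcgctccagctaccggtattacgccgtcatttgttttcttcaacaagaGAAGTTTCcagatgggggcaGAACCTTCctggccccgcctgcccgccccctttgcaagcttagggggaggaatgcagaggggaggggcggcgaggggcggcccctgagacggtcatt

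Below the adjusted p, the genes with the smallest p among the lower ones included several of myeloid cells. On the lower side, 296 genes met the looser rule, averaged 1 FPKM or more in either group and showed no overlap, and the 14 of smallest p include the 3 already given. Cxcl2, a chemokine that draws neutrophils, measured 0.616, 0.264 and 0.832 FPKM in HGPP livers, against 3.58, 5.44 and 5.64 FPKM in MCD livers (log2 fold change -2.97, limma adjusted p = 0.052). Csf3r, the receptor of granulocyte colony-stimulating factor, measured 2.39, 2.21 and 1.34 FPKM in HGPP and 7.72, 7.56 and 13.9 FPKM in MCD. Clec4d and Clec4e encode a pair of C-type lectins of myeloid cells, of which the second is known as Mincle. Clec4d measured 1.26, 2.01 and 1.36 FPKM in HGPP and 5.39, 17.2 and 15.2 FPKM in MCD, and Clec4e 0.241, 0.165 and 0.436 FPKM in HGPP and 1.35, 2.57 and 3.16 FPKM in MCD.

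Il1f9, which encodes interleukin-36 gamma, varied little within each group, at 0.409, 0.331 and 0.309 FPKM in HGPP and 1.53, 1.45 and 1.43 FPKM in MCD. Lilr4b, a receptor of myeloid cells, measured 4.79, 5.64 and 3.76 FPKM in HGPP and 13.6, 37.8 and 40.7 FPKM in MCD. Pstpip1, an adaptor of the cytoskeleton that binds pyrin, measured 0.528, 0.766 and 0.399 FPKM in HGPP and 2.11, 3.49 and 4.76 FPKM in MCD. Stfa2l1, of the stefin family of cysteine protease inhibitors, was at 0 in HGPP1 and HGPP2 and at 0.152 FPKM in HGPP3, against 1.04, 2.14 and 1.46 FPKM in MCD. Npy, the gene of neuropeptide Y, was likewise at 0 in HGPP1 and HGPP3 and at 0.241 FPKM in HGPP2, against 1.23, 3.60 and 4.18 FPKM in MCD. The remaining members of the 14 are A630001G21Rik, for which no role is given here, at 0.753 to 0.882 FPKM in HGPP and 2.51 to 3.23 FPKM in MCD, and the predicted gene Gm37419. Gm37419 was at 0 in all HGPP livers and at 0.763, 2.63 and 6.69 FPKM in MCD livers, which rest on 1, 5 and 10 reads. MCS1 to MCS3 had 1, 4 and 1 reads. The MCD mean was 1.85-fold a floor of 3 reads per library in HGPP, but MCD1 itself lay below that floor. Of these 11 genes all but Csf3r and Il1f9 were lower in MCD1 than in MCD2 and MCD3. The adjusted p of these 11 genes lay between 0.052 and 0.073 (limma).

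Among the higher genes, 69 met the same conditions, and the 14 of smallest p included cytochromes, enzymes of cholesterol synthesis and heat shock proteins, with adjusted p between 0.13 and 0.16 (limma). Cyp2c29 and Cyp2b10 encode drug-metabolizing cytochromes that the receptor CAR induces. Cyp2c29 measured 82.8, 75.7 and 116 FPKM in HGPP livers, 34.5, 44.1 and 31.8 FPKM in MCD livers, and 143, 108 and 195 FPKM in MCS livers. Cyp2b10 measured 2.41, 1.87 and 2.41 FPKM in HGPP and 0, 0.595 and 0.361 FPKM in MCD. Cyp39a1, an oxysterol hydroxylase of bile acid synthesis, measured 45.7, 39.8 and 52.6 FPKM in HGPP, 14.2, 23.8 and 11.0 FPKM in MCD, and 38.2, 37.0 and 36.0 FPKM in MCS. Cyp17a1, the steroid 17-hydroxylase, measured 24.9, 28.8 and 29.3 FPKM in HGPP and 14.7, 8.02 and 3.72 FPKM in MCD. Each of these 4 cytochromes was higher in every HGPP liver than in any MCD liver, which the conditions for naming them required.

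Plin5, a lipid droplet protein that ties droplets to mitochondria, was nearly level over the HGPP livers, at 137, 131 and 136 FPKM in HGPP, 67.8, 72.1 and 54.2 FPKM in MCD, and 88.6, 59.8 and 69.7 FPKM in MCS. Serpina3m, a secreted protease inhibitor, measured 218, 215 and 406 FPKM in HGPP and 92.9, 127 and 91.8 FPKM in MCD. Slc10a2, the sodium-dependent bile acid transporter best known from the ileum, measured 4.65, 5.21 and 4.74 FPKM in HGPP and 2.62, 1.56 and 1.60 FPKM in MCD. Ccnf, which encodes cyclin F, measured 3.28, 2.49 and 2.99 FPKM in HGPP and 1.41, 0.875 and 0.870 FPKM in MCD, and Ruvbl1, an ATPase of chromatin remodelling complexes, 16.1, 18.9 and 15.1 FPKM in HGPP and 6.32, 10.8 and 6.14 FPKM in MCD. Cend1, named for its part in cell cycle exit of neurons, measured 1.39, 1.54 and 1.58 FPKM in HGPP and 0.441, 0.438 and 0.172 FPKM in MCD. Plin5, Slc10a2, Cend1 and Ruvbl1 also lay above all MCS livers, so that for them the HGPP livers were the highest of the 3 groups.

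**Figure D2:**
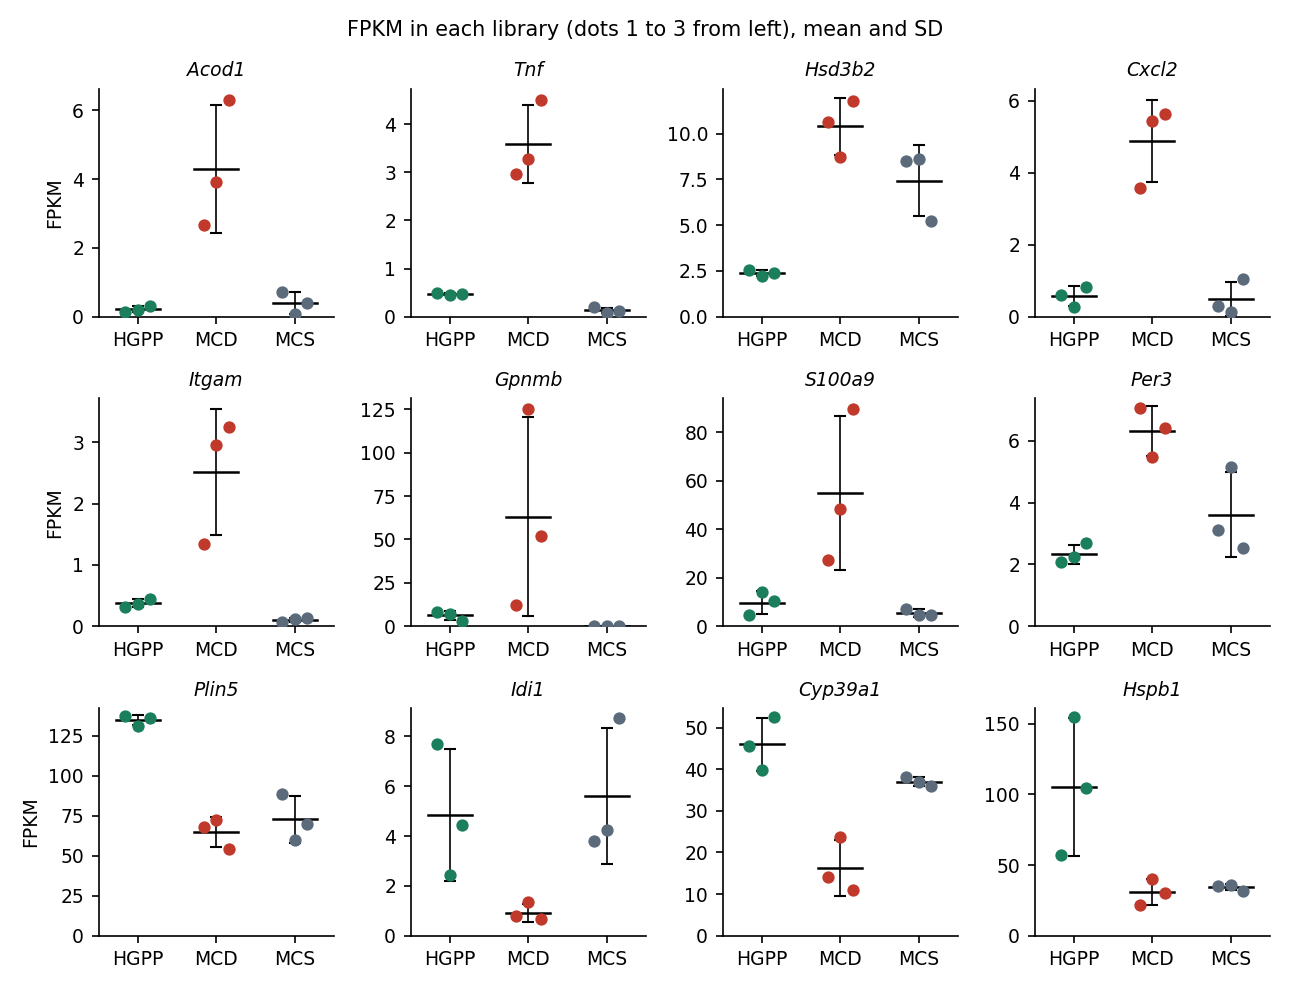
FPKM of 12 genes in each library, with HGPP left of MCD and MCS, the 3 dots of a group for its libraries 1 to 3 from left to right, the bar for the mean and the whiskers for the SD. Acod1, Tnf, Hsd3b2 and Cxcl2 sit low in all HGPP livers, Gpnmb spreads from 12.1 to 125 FPKM over the MCD livers, and Plin5 is nearly level over the HGPP livers.

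Lists of genes with a common role show where these differences gathered. They are described by how many of their tested members had an unadjusted p under 0.05, beside the share over all genes, which is 9.69% lower and 4% higher, and by the median log2 fold change of their members, beside -0.07 over all genes. Counts with 1 library left out are to be read against the shares over all genes in the same fit. These were 6.8% lower and 2.47% higher without HGPP1, 10.9% and 3.03% without HGPP2, 4.31% and 1.79% without HGPP3, 13.8% and 3.34% without MCD1, 9.32% and 11.9% without MCD2, and 4.96% and 1.85% without MCD3, so fewer genes of any kind passed without HGPP3 or MCD3, and more lay higher without MCD2. The lists were drawn up with earlier results of these data known, and no test was made of a list as a whole. Some genes, such as Il1b and Acod1, belong to more than 1 list, so counts of different lists are not independent. In bulk liver RNA, fewer cells of a type and less RNA per cell cannot be told apart.

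**Figure D3:**
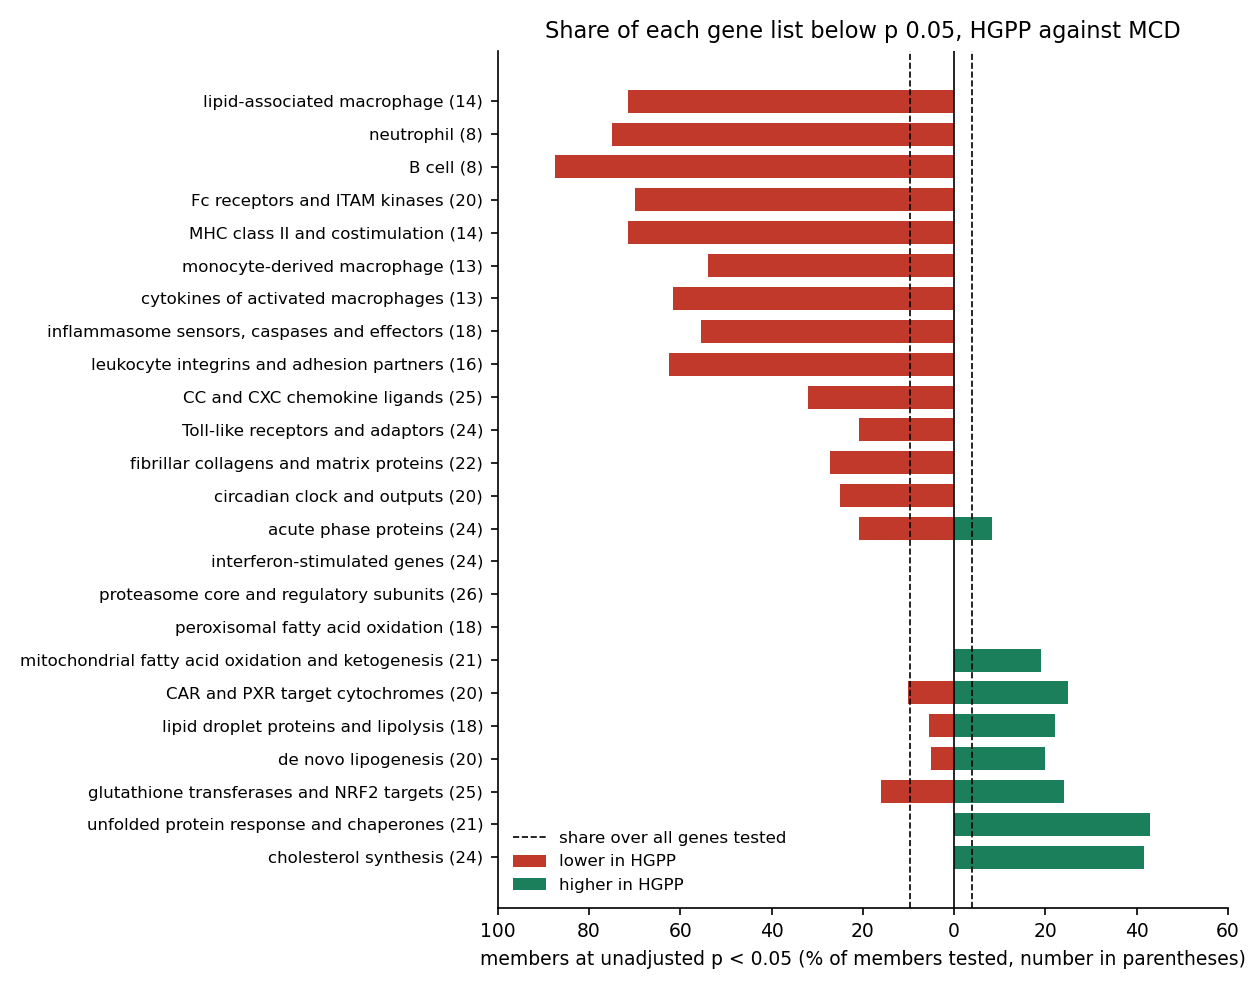
Bars give, for 24 gene lists, the percentage of tested members with an unadjusted p under 0.05, to the left for those lower in HGPP than in MCD and to the right for those higher, and dashed lines mark 9.69% and 4% over all genes. The lists of lipid-associated macrophages, neutrophils and B cells reach far past the left line, and cholesterol synthesis and the unfolded protein response reach 41.7% and 42.9% on the right.

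The study turned to the sensing of bacterial products and inflammasomes, and the members of these pathways did not lie at one level. Of 24 Toll-like receptor genes and adaptors, 5 lay lower and none higher, with a median of -0.17, and 1 lay lower without HGPP3 or without MCD3, against 10 lower and 2 higher without MCD1. Tlr13, a sensor of bacterial ribosomal RNA in mice, measured 1.2, 1.86 and 1.17 FPKM in HGPP livers and 2.12, 6.72 and 4.25 FPKM in MCD livers. Tlr2, the receptor of bacterial lipoproteins that the study followed, measured 2.06, 2.47 and 2.09 FPKM in HGPP, 2.19, 4.51 and 4.53 FPKM in MCD, and 1.11, 0.425 and 0.820 FPKM in MCS. HGPP2 stood above MCD1 for Tlr2, and the log2 fold change of -0.67 (95% interval -1.36 to 0.02) had an adjusted p of 0.37 (limma). By quantitative PCR the study reported significantly lower Tlr2, Nlrp3, Il1b and Tnf in HGPP than in MCD livers. It also reported weaker staining of the TLR2 and NLRP3 proteins, and those assays are not analysed here. Tlr1, a partner of TLR2, measured 1.41, 2.18 and 0.838 FPKM in HGPP and 1.85, 4.2 and 5.81 FPKM in MCD, again with HGPP2 above MCD1. Tlr4, the receptor of lipopolysaccharide, measured 0.270, 0.455 and 0.252 FPKM in HGPP and 0.360, 1.01 and 1.17 FPKM in MCD. Myd88, the adaptor that most of these receptors share, was at 9.77, 12.0 and 9.65 FPKM in HGPP and 11.2, 11.4 and 12.3 FPKM in MCD, with a log2 fold change of -0.16 (95% interval -0.60 to 0.28).

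Of 18 inflammasome genes 10 lay lower and none higher, with a median of -0.95, and the count ran from 5 without MCD3 to 13 without MCD1. The sensor Aim2, which binds DNA, measured 1.41, 1.52 and 0.983 FPKM in HGPP and 1.96, 3.80 and 5.75 FPKM in MCD. Mefv, which encodes pyrin, measured 0.484, 0.315 and 0.157 FPKM in HGPP and 0.776, 1.45 and 1.74 FPKM in MCD, and the adaptor gene Pycard 0.236, 0.234 and 0.201 FPKM in HGPP and 0.458, 0.772 and 1.28 FPKM in MCD. Neither Aim2, Mefv nor Pycard overlapped between the groups. Il1b, the cytokine that inflammasomes mature, measured 0.667, 1.86 and 2.04 FPKM in HGPP, 2.97, 9.39 and 9.28 FPKM in MCD and 1.53, 0.705 and 0.911 FPKM in MCS. The log2 fold change of HGPP over MCD was -2.13 ± 0.51 (SE), at an adjusted p of 0.17 by limma. Nlrp3 itself measured 0.388, 0.639 and 0.283 FPKM in HGPP and 0.408, 1.30 and 1.32 FPKM in MCD, where the groups overlapped (log2 fold change -0.95, 95% interval -1.98 to 0.07, limma adjusted p = 0.39). Nlrp6, a NOD-like receptor of epithelia that hepatocytes also hold, measured 20.7, 16.1 and 8.6 FPKM in HGPP, 55.4, 19.3 and 62.4 FPKM in MCD and 21.1, 57.7 and 38.3 FPKM in MCS, where HGPP1 lay above MCD2. Casp1, the protease that cleaves the interleukin, measured 1.53, 2.24 and 1.5 FPKM in HGPP and 2.16, 4.79 and 5.01 FPKM in MCD, and Gsdmd, the pore-forming protein, 15.8, 14.2 and 11.2 FPKM in HGPP and 14.6, 16.8 and 22.7 FPKM in MCD. Over the 26 genes that the study itself names, 16 lay lower and none higher, with a median of -0.96. The study chose these genes on the same samples, so their direction is not independent evidence, and the count was 7 without MCD3, 9 without HGPP3 or MCD2, and 20 without MCD1.

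Downstream of these receptors come NF-kB and the cytokines and chemokines it induces. Of 15 NF-kB subunits and inhibitors, 4 lay lower, with a median of -0.22, against 2 without HGPP3 or MCD3, among them the subunit gene Rel at 0.702, 0.795 and 0.632 FPKM in HGPP and 1.21, 1.75 and 1.49 FPKM in MCD, and Nfkbiz, a coactivator that the pathway induces, at 3.55, 2.67 and 3.49 FPKM in HGPP and 7.2, 5.27 and 5.53 FPKM in MCD. Of 13 cytokine and mediator genes of activated macrophages 8 lay lower, with a median of -1.05, and the count ran from 6 to 9 with 1 library left out. Ptgs2, the inducible cyclooxygenase, measured 0, 0.0149 and 0.0278 FPKM in HGPP and 0.114, 0.248 and 0.416 FPKM in MCD, levels that rest on few reads. Csf1, the growth factor of macrophages, measured 3.02, 4.38 and 4.03 FPKM in HGPP and 5.26, 8.32 and 8.49 FPKM in MCD.

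Of 25 chemokine ligands 8 lay lower and none higher, with a median of -0.30, and 4 lay lower without MCD2. Ccl3 and Ccl4, the macrophage inflammatory proteins, were among them, as was Cxcl2. Ccl3 measured 1.76, 2.58 and 0.749 FPKM in HGPP livers and 5.34, 6.88 and 10.6 FPKM in MCD livers, and Ccl4 1.02, 1.45 and 0.676 FPKM in HGPP and 2.64, 7.71 and 6.24 FPKM in MCD (log2 fold changes -2.19 and -2.22, limma adjusted p = 0.13 for both). Ccl5, which attracts T cells and monocytes, measured 1.33, 4.98 and 3.72 FPKM in HGPP and 5.62, 8.17 and 15.8 FPKM in MCD. The ligand for monocytes, Ccl2, was at 3.49, 7.68 and 8.29 FPKM in HGPP and 6.27, 9.58 and 8.51 FPKM in MCD, with a log2 fold change of -0.39 (95% interval -1.15 to 0.36). Of 18 chemokine receptors 6 lay lower, against 4 without HGPP3 or MCD3 and 10 without MCD1. Ccr1 measured 0.238, 1.06 and 0.382 FPKM in HGPP and 1.41, 4.44 and 3.01 FPKM in MCD, and Ccr2, the receptor of Ccl2 on monocytes, 1.03, 2.03 and 0.528 FPKM in HGPP and 1.78, 4.38 and 5.48 FPKM in MCD. In contrast, none of 24 interferon-stimulated genes lay lower or higher at this threshold (median 0.12), and Isg15 measured 25.8, 27.5 and 38.7 FPKM in HGPP and 29.7, 22.6 and 23.0 FPKM in MCD. Their direction turned with the libraries used, since without MCD1 4 of them lay lower (median -0.10), without MCD2 3 lay higher (median 0.23) and without HGPP1 2 lay higher (median 0.28).

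The genes that let myeloid cells bind antibodies and signal through tyrosine motifs lay lower almost throughout. Of 20 Fc receptor and kinase genes of this pathway all 20 had a negative log2 fold change and 14 an unadjusted p under 0.05, with a median of -1.43, and 11 to 19 passed it with 1 library left out. Fgr, a Src-family kinase, measured 1.30, 1.48 and 0.676 FPKM in HGPP and 2.59, 5.56 and 5.39 FPKM in MCD. Lat2, an adaptor of the same pathway, measured 0.257, 0.495 and 0.0973 FPKM in HGPP and 0.830, 2.12 and 1.43 FPKM in MCD. Tyrobp, the adaptor DAP12, measured 24.7, 45.1 and 23.6 FPKM in HGPP and 37.4, 151 and 109 FPKM in MCD, where HGPP2 lay above MCD1.

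Of 16 leukocyte integrins and adhesion partners 10 lay lower, with a median of -0.85, and 6 without HGPP1, HGPP3 or MCD3. Itgam, the integrin chain CD11b, measured 0.313, 0.367 and 0.444 FPKM in HGPP livers, 1.33, 2.96 and 3.25 FPKM in MCD livers and 0.0632, 0.115 and 0.133 FPKM in MCS livers. For Itgam the log2 fold change was -2.38 ± 0.36 (SE), at an adjusted p of 0.073 by limma. Its partner chain gene Itgb2 measured 5.94, 7.16 and 5.14 FPKM in HGPP and 8.67, 43.6 and 30.3 FPKM in MCD. Of 14 genes of MHC class II and costimulation all had a negative log2 fold change and 10 an unadjusted p under 0.05, with a median of -1.30, against 5 without MCD3, 6 without HGPP1, HGPP3 or MCD2, and 13 without MCD1. Cd274, the ligand PD-L1, measured 0.6, 0.810 and 0.651 FPKM in HGPP and 1.03, 2.78 and 2.78 FPKM in MCD, and Icosl, a costimulatory ligand, 0.875, 0.857 and 0.566 FPKM in HGPP and 1.53, 1.88 and 3.37 FPKM in MCD. The abundant chains overlapped, since H2-Eb1 measured 19.4, 68.0 and 25.8 FPKM in HGPP and 37.8, 92.8 and 123 FPKM in MCD, with HGPP2 above MCD1. Of 7 NADPH oxidase subunits 4 lay lower, led by Ncf4 at 2.26, 4.06 and 1.67 FPKM in HGPP and 5.13, 10.1 and 13.7 FPKM in MCD, against 2 without HGPP1, MCD2 or MCD3.

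Lipid-associated macrophages, which gather around fat-laden hepatocytes, had the list of the lowest median among those of 10 or more tested genes. All 14 of its genes had a negative log2 fold change, 10 an unadjusted p under 0.05, and the median was -2.04, running from -1.63 without MCD2 to -2.66 without MCD1. Gpnmb, a membrane glycoprotein of these cells, measured 8.15, 7.09 and 3.26 FPKM in HGPP, 12.1, 125 and 52.0 FPKM in MCD and 0.122, 0.246 and 0.0923 FPKM in MCS. Ctsk, a cathepsin, measured 0.941, 1.22 and 0.674 FPKM in HGPP and 2.47, 8.47 and 7.26 FPKM in MCD, Fabp5, a fatty acid binding protein, 2.88, 3.94 and 1.98 FPKM in HGPP and 7.44, 35.4 and 22.3 FPKM in MCD, and Lpl, lipoprotein lipase, 5.46, 6.68 and 4.65 FPKM in HGPP and 12.0, 52.0 and 25.4 FPKM in MCD. Gpnmb, Fabp5 and Lpl stayed above the MCS livers in every HGPP liver. Spp1, which encodes osteopontin and belongs to the same list, overlapped at 20.9, 80.8 and 19.99 FPKM in HGPP and 22.9, 142 and 75.6 FPKM in MCD. The summed level of the list was 143 to 336 FPKM in HGPP livers, 236 to 983 FPKM in MCD livers and 54.7 to 63.3 FPKM in MCS livers.

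Markers of resident Kupffer cells, the macrophages seeded before birth, did not share this pattern. Their median was -0.18, and it was 0.18 without MCD2 and -0.56 without MCD1. Of 11 markers, Marco, a scavenger receptor, lay lower (but not without HGPP1, HGPP3 or MCD2), and Cd163, the receptor of haptoglobin-bound hemoglobin, lay higher. Cd163 measured 4.96, 5.04 and 4.49 FPKM in HGPP livers, 2.28, 1.89 and 2.82 FPKM in MCD livers and 4.2, 1.55 and 1.64 FPKM in MCS livers, and was above every MCD liver in every HGPP liver (log2 fold change 1.04, standard error 0.23, limma adjusted p = 0.16). Clec4f, a lectin found on Kupffer cells alone among liver cells, measured 47.6, 80.9 and 49.1 FPKM in HGPP and 26.0, 67.9 and 59.8 FPKM in MCD. Clec4f overlapped between the groups.

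Of lysosomal genes, 7 of 23 lay lower with a median of -0.29, against 3 without HGPP1, HGPP3 or MCD3 and 12 without MCD1, and those 7 include macrophage genes such as Ctsk and Gpnmb. Without MCD2 more lysosomal genes lay higher (6) than lower (3), and the median was -0.10. Of 12 matrix metalloproteinases 4 lay lower, and 7 without MCD1, while 3 lay lower and 2 higher without MCD2. The 4 include Mmp12, the macrophage elastase, at 5.96, 6.91 and 3.42 FPKM in HGPP and 11.0, 69.2 and 41.0 FPKM in MCD, Mmp9, a gelatinase, at 0.212, 0.289 and 0.270 FPKM in HGPP and 0.516, 1.88 and 2.37 FPKM in MCD, and Mmp8 of neutrophils at 0.124, 0.225 and 0.184 FPKM in HGPP and 0.574, 0.543 and 1.41 FPKM in MCD. Fibrillar collagens and matrix proteins had a median of -0.49, and 6 of 22 lay lower, against none without HGPP3 or MCD2, 2 without HGPP1 or MCD3, 10 without HGPP2 and 13 without MCD1. Col3a1, a fibrillar collagen, measured 3.42, 6.56 and 2.25 FPKM in HGPP, 5.21, 26.4 and 14.6 FPKM in MCD and 1.47, 1.91 and 1.82 FPKM in MCS, and Timp1, an inhibitor of metalloproteinases, 0.675, 2.69 and 0.574 FPKM in HGPP and 1.57, 5.46 and 9.87 FPKM in MCD. In both, HGPP2 lay above MCD1.

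Markers of blood cells differed in level between these groups as well. The summed FPKM of 12 neutrophil markers was 10.7 to 22.2 in HGPP, 47.7 to 145 in MCD and 7.25 to 9.94 in MCS, and that of 10 B cell markers 1.71 to 3.04 in HGPP, 6.65 to 24.8 in MCD and 1.07 to 2.34 in MCS. In neither list did the HGPP and MCD livers overlap, although the B cell markers were low in every liver. Of 8 neutrophil markers tested 6 lay lower (median -1.91), and S100a9, a subunit of calprotectin, measured 4.59, 14.1 and 10.3 FPKM in HGPP and 27.2, 48.3 and 89.5 FPKM in MCD. Of 8 B cell markers tested 7 lay lower (median -1.74), and MCD3 had the highest sum. Of the T cell markers 6 of 11 lay lower, with a median of -0.91, against 1 without HGPP3 or MCD3, and of the NK cell markers 4 of 9, against 2 without HGPP3 or MCD3 and 7 without MCD1. Il7r, the interleukin-7 receptor of lymphocytes, measured 0.482, 0.629 and 0.260 FPKM in HGPP and 1.46, 2.77 and 2.35 FPKM in MCD. Of the neutrophil markers, the granule genes Mpo, Elane and Ltf and the surface marker Ly6g did not pass the filter on low values, but they are part of the sums. Markers of erythroid cells summed to 178 to 457 FPKM in HGPP, 344 to 805 FPKM in MCD and 149 to 366 FPKM in MCS, and 2 of 6 tested lay lower (median -0.85), against 4 without HGPP2 or MCD1. Platelet markers summed to 6.19 to 8.51 FPKM in HGPP, 7.66 to 17.1 FPKM in MCD and 2.93 to 4.31 FPKM in MCS, and 3 of 7 tested lay lower (median -1.16), against none without MCD2 or MCD3. Both sums overlapped between HGPP and MCD. Of 13 markers of monocyte-derived macrophages 7 lay lower (median -1.16), against 4 without MCD2 and 12 without MCD1. The part of cell numbers and of blood in the results for macrophage and cytokine genes was not tested. Hepatocyte markers summed to 69989, 61679 and 73484 FPKM in HGPP, 76159, 53208 and 44137 FPKM in MCD and 99175, 84576 and 80506 FPKM in MCS, which marks the samples as liver.

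**Figure D4:**
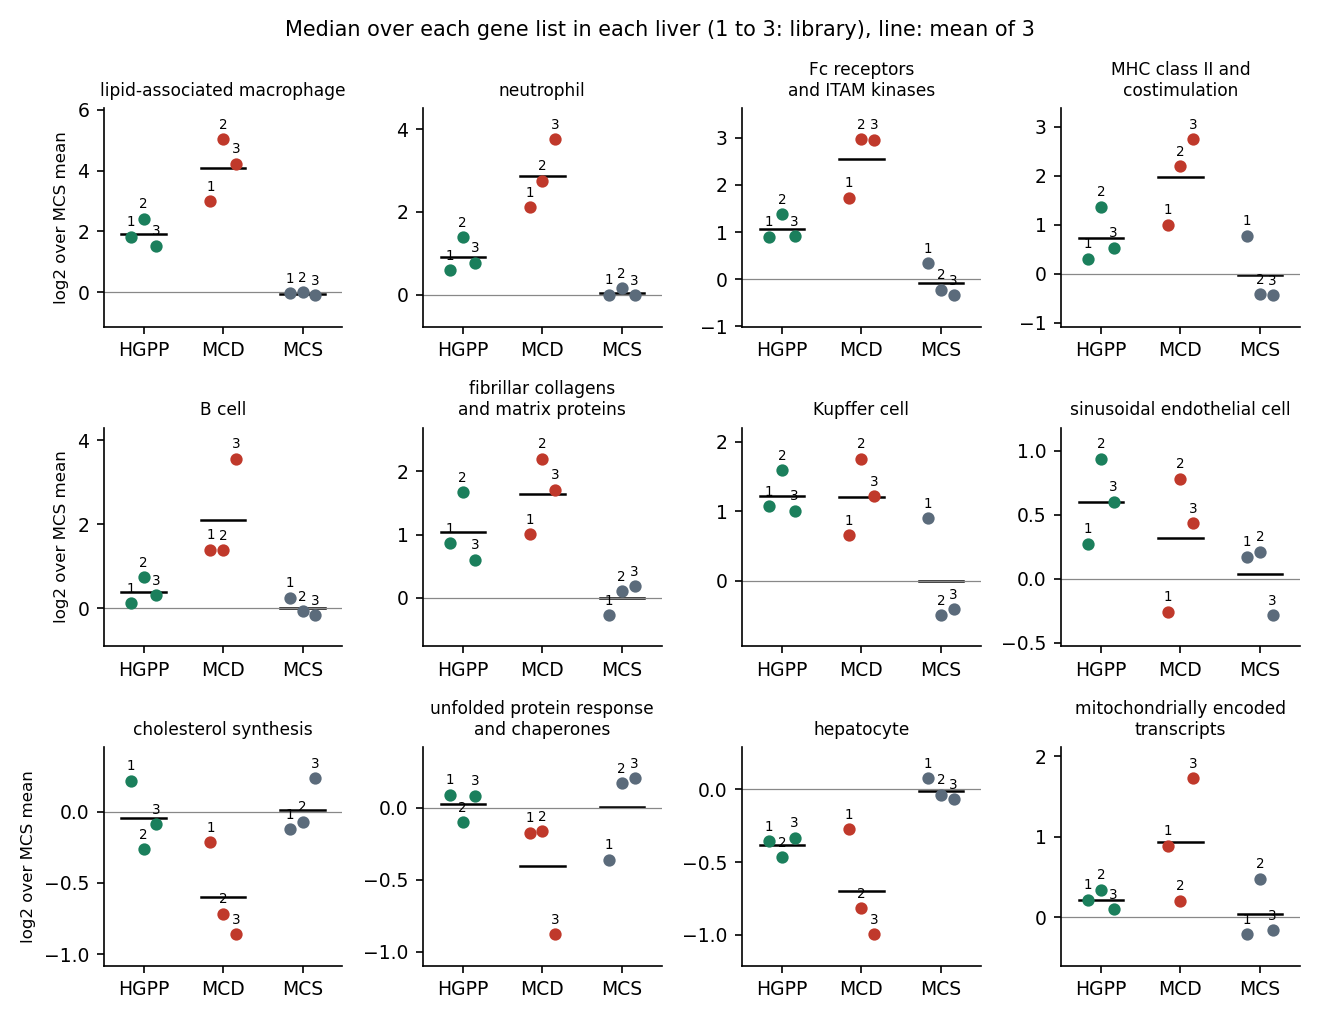
Each dot is the median over a gene list of log2(FPKM + 0.1) in 1 liver less the MCS mean, numbered by library, with HGPP left of MCD and MCS and a line for the mean of 3. The lists of lipid-associated macrophages, neutrophils and Fc receptors lie between MCS and MCD in all HGPP livers, with MCD1 the lowest MCD liver, whereas Kupffer and endothelial lists overlap.

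Genes of cholesterol synthesis lay higher in HGPP livers. All 24 members of the list had a positive log2 fold change, 10 of them had an unadjusted p under 0.05, and the median was 0.55. In 9 of the 24 every HGPP liver was above every MCD liver, as in 5.83% of all genes tested, and the others overlapped. With 1 library left out the count was 6 without HGPP1, HGPP3 or MCD3 and 16 without MCD1, and the median stayed between 0.42 and 0.83. The enzymes with the smallest p sit at several steps of the pathway. Idi1, which isomerizes isopentenyl diphosphate, measured 7.69, 2.43 and 4.45 FPKM in HGPP, 0.770, 1.33 and 0.653 FPKM in MCD and 3.82, 4.24 and 8.73 FPKM in MCS. The log2 fold change of HGPP over MCD was 2.19 ± 0.42 (SE), at an adjusted p of 0.13 by limma. Sqle, the squalene epoxidase, measured 15.4, 9.82 and 10.5 FPKM in HGPP, 6.45, 3.82 and 2.68 FPKM in MCD and 5.17, 6.17 and 7.89 FPKM in MCS. Pmvk, the phosphomevalonate kinase, measured 17.3, 22.2 and 20.6 FPKM in HGPP and 9.30, 8.74 and 12.6 FPKM in MCD, and Cyp51, the lanosterol demethylase, 31.8, 25.3 and 19.6 FPKM in HGPP and 15.4, 8.34 and 13.4 FPKM in MCD. For Idi1, Sqle, Pmvk and Cyp51 every HGPP liver was above every MCD liver, which for Idi1 and Sqle was a condition of their naming above.

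Srebf2, the transcription factor of the pathway, overlapped between the groups. It measured 11.6, 7.95 and 9.94 FPKM in HGPP and 9.07, 9.18 and 8.78 FPKM in MCD, a difference of 0.11 on the log2 scale with a 95% interval of -0.36 to 0.58.

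**Figure D5:**
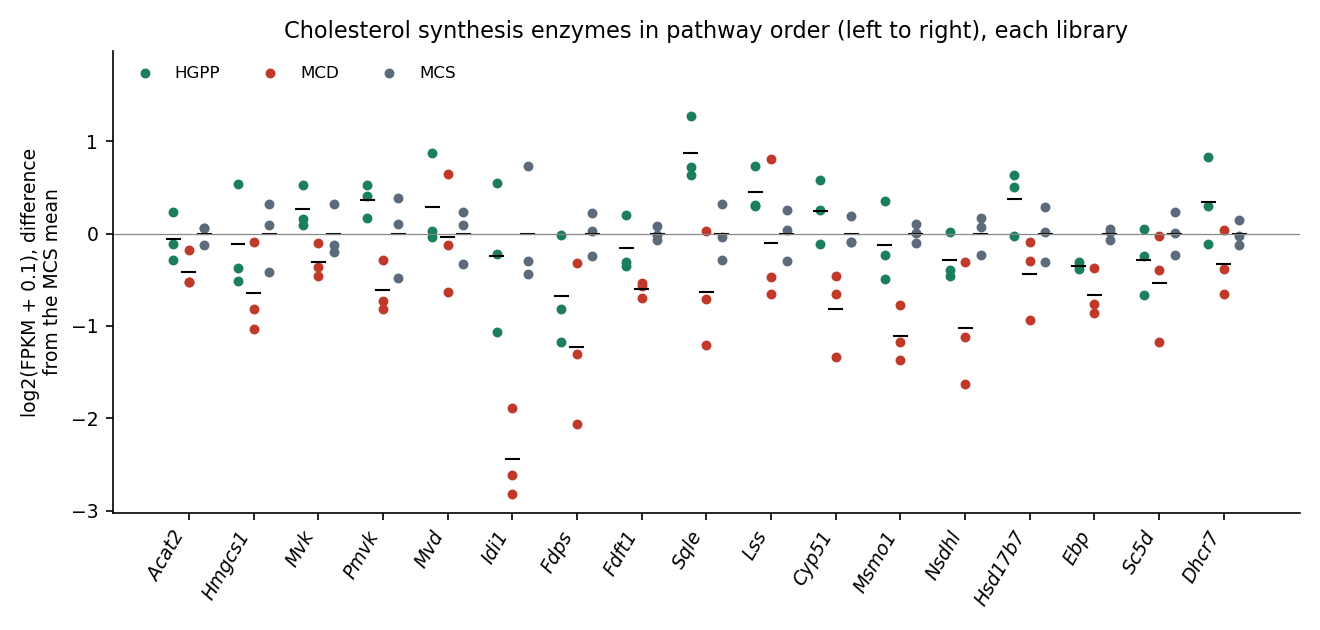
Dots give log2(FPKM + 0.1) of 17 cholesterol synthesis enzymes in each library less the MCS mean, in pathway order from left to right, with HGPP left of MCD and MCS for each gene and a bar for the mean. Idi1 has the widest gap between HGPP and MCD livers. Lss is an example of overlap between the groups, and only 9 of the 24 genes of the whole list had no overlap.

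Chaperones also lay higher. Of 21 genes of the unfolded protein response all had a positive log2 fold change and 9 an unadjusted p under 0.05, with a median of 0.53, and 3 without HGPP1, HGPP3 or MCD3. The median was 0.20 without MCD3, the liver with the largest mitochondrial share. Hspa5, the main chaperone of the endoplasmic reticulum, known as BiP, measured 249, 273 and 268 FPKM in HGPP, 158, 187 and 84.5 FPKM in MCD and 97.4, 208 and 211 FPKM in MCS. Dnajc3, its co-chaperone, measured 54.0, 50.7 and 57.2 FPKM in HGPP and 31.0, 42.8 and 27.6 FPKM in MCD. No gene of this list met the looser rule of the study, and Ddit3, which encodes the stress factor CHOP, overlapped at 7.34, 28 and 8.15 FPKM in HGPP and 16.1, 8.18 and 11.4 FPKM in MCD. Of the heat shock proteins of the cytosol, Hspb1, a small heat shock protein, measured 57.2, 154 and 104 FPKM in HGPP, 21.6, 39.9 and 30.5 FPKM in MCD and 35.0, 36.1 and 31.7 FPKM in MCS. Hsph1, a nucleotide exchange factor of HSP70, measured 10.8, 10.02 and 11.7 FPKM in HGPP and 4.73, 5.87 and 3.05 FPKM in MCD, and Hspa1b, an inducible HSP70 with a near-identical copy, 6.41, 3.97 and 3.39 FPKM in HGPP and 3.04, 1.97 and 1.52 FPKM in MCD. For Hspb1, Hsph1 and Hspa1b the groups did not overlap, which for Hspb1 and Hsph1 was a condition of their naming above. The gene of their factor, Hsf1, measured 4.01, 3.89 and 2.97 FPKM in HGPP and 4.72, 3.83 and 4.96 FPKM in MCD.

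Genes of fat handling divided by role. Of 18 lipid droplet genes 4 lay higher and 1 lower (median 0.44), with 1 higher without HGPP2 or HGPP3, 2 without MCD1 or MCD3 and 9 without MCD2. Plin2, the general coat protein of droplets, measured 414, 770 and 745 FPKM in HGPP, 188, 475 and 310 FPKM in MCD and 254, 201 and 250 FPKM in MCS, where HGPP1 lay below MCD2. Of 21 genes of mitochondrial fatty acid oxidation and ketogenesis 4 lay higher (median 0.35), but none without HGPP3, MCD1 or MCD3, 1 without HGPP1 and 12 without MCD2. Hadhb, a subunit of the trifunctional protein, measured 40.9, 41.4 and 45.9 FPKM in HGPP and 17.6, 39.6 and 22.9 FPKM in MCD. Cpt1a, the gate of the pathway, overlapped at 76.7, 58.8 and 69.8 FPKM in HGPP and 59.7, 86.1 and 61.9 FPKM in MCD (log2 fold change -0.01, 95% interval -0.50 to 0.49). None of 18 peroxisomal oxidation genes passed in either direction, while 2 lay lower without MCD1. Acot1, a cytosolic acyl-CoA thioesterase, lay higher at 25.0, 54.0 and 52.8 FPKM in HGPP and 4.31, 23.3 and 18.6 FPKM in MCD.

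Among 20 genes of fatty acid synthesis, 4 lay higher, and 8 without MCD2, and 1 lower. Fasn, fatty acid synthase, measured 28.9, 16.8 and 18.8 FPKM in HGPP livers and 14.7, 9.09 and 9.04 FPKM in MCD livers, Me1, the malic enzyme that supplies NADPH, 57.4, 48.8 and 69.3 FPKM in HGPP and 26.4, 40.1 and 25.0 FPKM in MCD, and Elovl6, an elongase, 12.9, 16.8 and 15.3 FPKM in HGPP and 11.4, 7.77 and 7.08 FPKM in MCD. The member that lay lower was Srebf1, the gene of the transcription factor that drives these enzymes, at 18.2, 12.9 and 18.2 FPKM in HGPP, 28.6, 54.0 and 33.5 FPKM in MCD and 26.5, 33.3 and 21.1 FPKM in MCS. Fasn, Me1, Elovl6 and Srebf1 did not overlap between HGPP and MCD, with the enzymes above and their factor below (limma adjusted p = 0.23, 0.19, 0.24 and 0.16 in that order).

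Drug-metabolizing enzymes showed no single direction. Of 20 cytochromes and other targets of the receptors CAR and PXR, 5 lay higher and 2 lower, with a median of 0.14, and 6 lay lower without MCD2. Cyp2c55 measured 4.2, 2.77 and 3.03 FPKM in HGPP and 1.09, 2.31 and 1.11 FPKM in MCD, whereas Cyp3a25 lay lower at 289, 152 and 171 FPKM in HGPP, 394, 358 and 641 FPKM in MCD and 354, 377 and 311 FPKM in MCS. Of 25 glutathione transferases and targets of the factor NRF2, 6 lay higher and 4 lower (median 0.22), with 1 higher without HGPP2 and 2 without MCD1 or MCD3. Gstm3 measured 378, 406 and 224 FPKM in HGPP and 141, 182 and 85.1 FPKM in MCD, while Nqo1, a quinone reductase and classical NRF2 target, measured 9.16, 8.13 and 8.29 FPKM in HGPP and 11.5, 21.6 and 11.9 FPKM in MCD. Of 21 glucuronosyl- and sulfotransferases 4 lay higher, against 1 without HGPP3 or MCD3, 2 without HGPP1 and 10 without MCD2, and Ugt1a9 measured 7.52, 2.28 and 8.24 FPKM in HGPP and 1.03, 2.38 and 0.801 FPKM in MCD, a gene whose exons are in large part shared with its neighbours of the Ugt1a locus. In bile acid synthesis Cyp7b1 and Cyp39a1 lay higher of 16 genes, against 1 gene without HGPP1 or MCD1 and 4 without MCD2, and Cyp7a1, the rate-limiting enzyme, spread from 2.62 to 41.3 FPKM in HGPP and from 9.39 to 18.9 FPKM in MCD. Slc10a1, the main uptake transporter for bile acids, measured 89.0, 68.9 and 74.5 FPKM in HGPP, 56.2, 43.3 and 47.8 FPKM in MCD and 250, 228 and 260 FPKM in MCS, so that HGPP livers lay between the others.

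Of 20 genes of the clock and its outputs 5 lay lower and none higher (median -0.34), and the same number or 4 or 6 did so with 1 library left out. Per3, a period gene, measured 2.09, 2.23 and 2.68 FPKM in HGPP, 7.05, 5.46 and 6.42 FPKM in MCD and 3.11, 5.16 and 2.55 FPKM in MCS. Its log2 fold change was -1.40 ± 0.22 (SE), at an adjusted p of 0.092 by limma. Dbp and Tef, which encode clock output factors, lay lower too. Dbp measured 12.6, 7.16 and 12.9 FPKM in HGPP and 43.8, 28.5 and 13.3 FPKM in MCD, with HGPP3 close to MCD3. Tef measured 16.8, 16.6 and 17.5 FPKM in HGPP and 35.9, 21.2 and 28.1 FPKM in MCD. Any link of these factors with the D-boxes in the Per3 promoter was not tested. Bhlhe41, a repressor of the clock, measured 0.368, 0.488 and 0.285 FPKM in HGPP and 1.19, 1.59 and 1.33 FPKM in MCD. The core genes were less even, since Per2 measured 7.33, 8.26 and 7.57 FPKM in HGPP and 18.8, 7.57 and 11.1 FPKM in MCD, and Arntl, the partner of CLOCK, 1.27, 0.490 and 0.288 FPKM in HGPP and 0.312, 0.183 and 0.476 FPKM in MCD. The hour at which each liver was taken was not used here, and its part in these values was not tested.

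Secreted liver proteins divided as well. Of 24 acute phase genes 5 lay lower and 2 higher (median -0.04), with 5 higher without HGPP2 and 1 without HGPP1, HGPP3 or MCD3. Lcn2, lipocalin 2, measured 50.5, 41.3 and 51.8 FPKM in HGPP and 94.6, 189 and 116 FPKM in MCD, Orm2, an orosomucoid, 35.8, 44.4 and 41.9 FPKM in HGPP and 69.6, 143 and 198 FPKM in MCD, and Saa3, a serum amyloid A that macrophages also make, 5.86, 4.74 and 4.43 FPKM in HGPP and 11.3, 9.56 and 21.5 FPKM in MCD. In all 3 the groups did not overlap, while the hepatic Saa1 overlapped at 9.70, 11.2 and 12.9 FPKM in HGPP and 5.72, 26.5 and 42.9 FPKM in MCD. In the growth hormone axis 3 of 14 genes lay lower, and 5 without HGPP1, and 1 higher. Cux2, a female-biased repressor, measured 1.06, 0.616 and 0.645 FPKM in HGPP and 2.05, 3.65 and 4.75 FPKM in MCD, and Socs2, a feedback inhibitor of the growth hormone receptor, 2.08, 3.19 and 2.79 FPKM in HGPP and 6.44, 7.10 and 14.1 FPKM in MCD. Of 16 male-biased genes 15 had a positive log2 fold change (median 0.63) and 3 lay higher, against 2 without HGPP1, 5 without HGPP2 and 6 without MCD3, and the median was 0.24 without MCD2. Of these genes Elovl3 stood at 8.34, 4.56 and 3.68 FPKM in HGPP, 0.925, 0.879 and 3.67 FPKM in MCD and 16.6, 25.8 and 32.3 FPKM in MCS.

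In several programs few or no genes passed. No gene of 26 proteasome subunits, 12 periportal, 12 pericentral and 12 sinusoidal endothelial markers passed in either direction, and 1 of 26 cell cycle genes lay lower and 1 higher. Without MCD2, where 11.9% of all genes lay higher, 9 proteasome genes, 4 endothelial markers and 2 periportal markers did so. Without MCD1 4 cell cycle genes lay lower (median -0.28), and without MCD3 3 periportal markers did (median -0.04). Of 15 reference genes, Actb, which encodes actin, lay lower at 287, 358 and 274 FPKM in HGPP and 389, 481 and 424 FPKM in MCD, and Pgk1 higher, while 4 reference genes lay higher without MCD2. Of 13 mitochondrially encoded transcripts 4 lay lower (median -0.85), against 2 without HGPP3 or MCD3 and 8 without MCD2, and mt-Nd6 measured 1627, 1669 and 1672 FPKM in HGPP and 3370, 2257 and 5110 FPKM in MCD.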

How the data were processed

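Liver RNA of 9 mice was sequenced, and the 3 HGPP and 3 MCD libraries were compared. FPKM values of 21936 genes, already divided by gene length and depth, were deposited by the authors. For trimming and counting, Cutadapt and HTSeq stand in the paper's methods, whereas processing notes of the submitters list STAR 2.7.7a, featureCounts 2.0.0 and fastp 0.20.1. No genome build was found in those sources. With gene lengths of GENCODE vM21 (GRCm38), 115881 values no larger than 1000 reads were turned back into reads, of which 98.13% were whole to within 0.02, and this gave the depth. Near an FPKM of 0.1 a gene of 1 kb rests on 1.15 reads in MCD1.

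A gene was kept where 3 of the 9 libraries or more reached 0.1 FPKM. The test was limma 3.58.1 under R 4.3.3 (lmFit, then eBayes with trended variance) applied to log2(FPKM + 0.1), a scale that understates the change of low genes, with Benjamini-Hochberg adjustment over 13817 genes. Figures were drawn with matplotlib 3.10.9. The code was tested on simulated data. The 75 gene lists were written by hand, 73 with at least 3 genes kept, and 2 symbols were matched by an older name. The members and lists were chosen with earlier results of these data known. Named genes are those at an adjusted p under 0.05, in each direction the 14 of smallest p past the study's thresholds with a mean of at least 1 FPKM and no overlap, the 4 members of smallest p of each list, those the study names, and the HSD3B family and reference genes. Outside this rule, Arntl, Ccl2, Clec4f, Cpt1a, Csf1, Cyp7a1, Ddit3, Gsdmd, H2-Eb1, Hsf1, Hspa1b, Lss, Myd88, Nlrp6, Nqo1, Per2, Saa1, Srebf2 and Tyrobp, with the neutrophil markers that did not pass the filter, were named after their values were seen. All 5 promoters printed were found in RefSeq's GRCm38 table, which was searched for the motifs given beside them and for the E-box CACGTG. There were 19 alternatives, in pseudocount, filter, scaling, model and left-out libraries, and voom on the recovered reads was 1 of them. The number of members of each list without each library was counted after the values had been seen. The labels pair no mice between HGPP and MCD, so the livers were treated as unpaired. Deviations of same-numbered livers from their group means had correlations of 0.30, 0.02 and -0.16. The highest correlation of any pair was 0.33, for HGPP2 and MCD3. With 3 livers a group these values cannot show whether mice were paired. Other assays of the study are not analysed here, and values of some genes are not reported here.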

Additional observations from a re-analysis of the deposited data

How the results depend on the processing

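At an adjusted p under 0.05, the 3 genes became none without a filter on low values, under quantile normalization and with the RNA integrity number as a covariate, 1 with voom on recovered reads, 5 on the TPM scale, 16 in 1 fit over 9 libraries and 244 with array weights. With 1 library left out the count ran from 0 (without HGPP1, HGPP2, HGPP3 or MCD3) to 443 (without MCD1). With the replicate number as a block it was 14, but nothing in the labels pairs same-numbered livers. The 841 genes at the study's thresholds became 261 with a pseudocount of 1, 486 with a filter at 1 FPKM, 338 with the RNA integrity number and 1345 with array weights, and ran from 530 (without MCD3) to 1359 (without MCD1). Of them 15.1% were higher in HGPP, against 30.5% under quantile normalization and 37.7% without MCD2. The causes were not tested. With 3 livers a group, an exact permutation test of 1 value cannot go below 0.1.

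The naming rule yields 320 genes, and 119 genes of this text were followed through the alternatives. Among these 119, a change of sign was seen in 6, all with intervals that included 0. Cpt1a had a log2 fold change of 0.0741 on the TPM scale, 0.0614 with median-of-ratios, 0.0868 with array weights, and -0.102 (without MCD1) to 0.162 (without MCD2) with 1 library left out. Ddit3 had -0.17 with array weights and -0.56 (without HGPP2) to 0.396 (without HGPP1), and -0.19 without MCD2. Hsd3b5 had -0.066 with a pseudocount of 1 and -0.73 (without MCD2) to 1.08 (without MCD1). Srebf2 had -0.004 with the RNA integrity number and -0.0186 (without HGPP1) to 0.252 (without HGPP2). Clec4f had -0.15 (without MCD1) to 0.541 (without MCD2), and Cyp7a1 -1.83 (without HGPP1) to 0.14 (without HGPP2).

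The medians of 75 lists were within 1 SD of their main value in 1360 of 1424 list and setting pairs. The SD is that of the list medians of single livers within HGPP and MCD, and is wide where livers scatter. Lists with a median near 0 did change sign, such as markers of mesothelial cells in 14 of the 19 alternatives and pericentral markers in 9. Depth limits genes near 0.1 FPKM, which rest on few reads.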

Other observations

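Genes at 0 in all livers of either HGPP or MCD and detected in all livers of the other were few and low. At 0 in all HGPP livers and detected in all MCD livers were 45 genes, and 13 were at 0 in all MCD livers and detected in all HGPP livers. Most rest on few reads, and no test was made of these counts. MCS livers played no part in this choice, and some of these genes were detected there, such as Gm37419 with 1, 4 and 1 reads in MCS1 to MCS3.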
